A study of Drosophila melanogaster with 90 samples.

Results

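Late pupae of Drosophila melanogaster that had been turned at normal gravity were set against pupae kept still at normal gravity, after both had gone through a cold step. The members were chosen from the sample labels alone: 3 arrays labelled as the rotational control of the Large Diameter Centrifuge (LDC), here called rotating, and 3 arrays of the external control outside the centrifuge, here called static, or 6 of the 90 arrays of the series. Both groups were wild-type Oregon R animals collected just before eclosion, held in open containers with normal oxygen and no magnetic field, and both had been at 12 °C for 3 days before the treatment according to the series description. The study's methods give a slightly longer step and, in 1 place, a warmer one. The rotating pupae therefore had the motion of the machine at 1g without its added load. The static pupae were outside the centrifuge, and any other difference between the pools, such as sex ratio or age, would enter the comparison too. Each array measured the RNA of a pool of whole pupae on an Affymetrix whole-genome chip, the labels call the arrays biological replicates, and the sex of the pooled pupae is not given in the sources used here. In each group 1 array came from the first run of the experiment and 2 from a second run of the same design.

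Metamorphosis rebuilds the animal inside the puparium. Larval organs are broken down, the adult midgut, muscles, sense organs, cuticle and reproductive tract are built, and much of this proceeds in pulses set by the steroid hormone ecdysone. Development runs more slowly in the cold, and in the days before eclosion many adult genes are switched on in quick succession, so that the levels of tissue-specific genes depend strongly on the exact age and on the mix of males and females in a pool.

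By their marker genes the 6 arrays held late pupae, but by their correlations they did not fall into a rotating and a static group. Over 8 late pupal markers such as Act88F, the actin of the indirect flight muscle, the mean level was between 11.27 and 11.31 on the rotating arrays and between 11.32 and 11.48 on the static arrays (log2 intensity), and the 6 measured salivary glue genes of an earlier stage averaged 4.85 to 5.31 and 5.08 to 5.15. Array medians lay between 6.41 and 6.52, and correlations between arrays between 0.943 and 0.987. Rotating replicate 1 and static replicate 1, both of the first experiment, correlated at 0.986, and rotating replicate 2 correlated at 0.987 with static replicate 3. The yolk protein genes Yp1, Yp2 and Yp3, made in the female fat body and ovary, averaged 7.94, 12.24 and 11.33 on rotating replicates 1 to 3 and 8.20, 7.22 and 11.04 on static replicates 1 to 3. The 17 male markers averaged 8.16, 9.22 and 8.82 on the rotating arrays and 9.04, 9.60 and 9.58 on the static arrays. Static replicate 2 stood apart from the other 5 arrays in several genes described further on, among them Eig71Ea, Drsl6 and TotB. The part of sex ratio and age of the pools in the differences below was not tested.

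Rotation without hypergravity was accompanied by few calls. With limma and Benjamini-Hochberg adjustment over 18769 probe sets, 10 probe sets were called at an adjusted p under 0.05 (0.0533% of those tested), 8 higher in rotating pupae (0.0426%) and 2 lower (0.0107%). Without adjustment 1684 probe sets were higher (8.97%) and 1226 lower (6.53%) at p under 0.05, and the rotating and static arrays did not overlap for 870 probe sets that were higher (4.64%) and 1410 that were lower (7.51%). The genes with a symbol that rose were CG12483, CG8159, vls, CG4045, Stt3A and Dpit47, and those that fell were CG30357 and CG9948. The other 2 called probe sets carry no single gene symbol, and both rose by 0.59 on the log2 scale. The count rests on the arrays that enter: it was 0 without rotating replicate 2, 1 without rotating replicate 3, 0 without static replicate 2, 1999 without rotating replicate 1, 236 without static replicate 1 and 84 without static replicate 3.

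**Figure D1:**
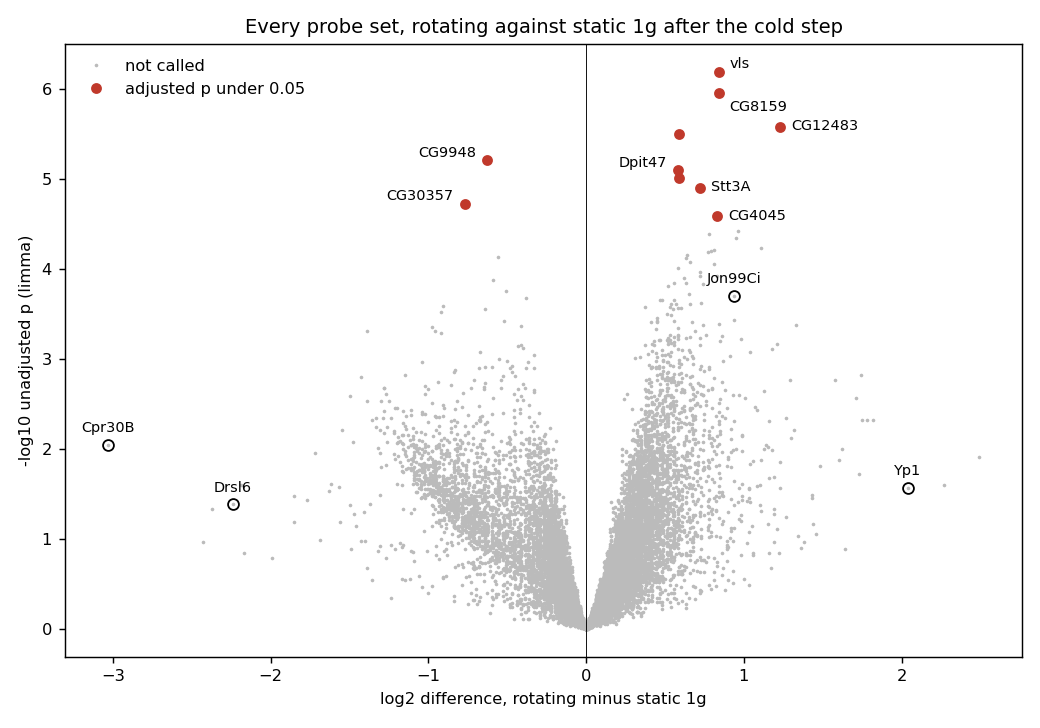
Each point is 1 of the 18769 probe sets, with its log2 difference (rotating minus static 1g) on the x axis and -log10 of its unadjusted limma p on the y axis. Red points are the 10 probe sets with an adjusted p under 0.05, with their symbols where they have a single one, and open circles mark genes named in the text that were not called, such as Cpr30B at -3.03 and Yp1 at 2.04.

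Among the genes that rose, CG12483 had the largest difference. Its log2 intensity was 7.45, 7.69 and 7.50 on the rotating arrays against 6.46, 5.77 and 6.71 on the static arrays, a 2.35-fold difference (log2 1.23, SE 0.21, adjusted p = 0.0147, limma). All rotating arrays lay above all static arrays, as the rule for named genes required, and the spread was wider among the static ones (SD 0.13 rotating, 0.49 static). vls, which encodes a methylosome component needed for germ plasm assembly, had 7.51, 8.01 and 7.59 against 7.04, 6.72 and 6.84, a difference of 0.84 on the log2 scale (SE 0.13, adjusted p = 0.0103, limma). CG8159 showed the same difference of 0.84 (SE 0.14, adjusted p = 0.0103, limma), with 6.42, 6.47 and 6.79 on rotating arrays against 5.99, 5.50 and 5.66 on static ones. In both genes the first-experiment pair was the closest, differing by 0.47 for vls and 0.43 for CG8159, while the second experiment gave 1.02 and 1.05.

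CG4045, the fly counterpart of a tRNA guanine methyltransferase, had 7.33, 7.74 and 7.90 in rotating pupae against 6.58, 6.72 and 7.18 in static pupae (log2 difference 0.83, SE 0.16, adjusted p = 0.0486, limma). Stt3A, the catalytic subunit of the oligosaccharyltransferase that adds N-glycans in the endoplasmic reticulum, had 8.16, 8.57 and 8.38 against 7.35, 7.66 and 7.93 (0.72, SE 0.14, adjusted p = 0.0294, limma). Dpit47, a co-chaperone of Hsp90 that binds DNA polymerase alpha, had 7.35, 7.78 and 7.83 against 7.09, 6.98 and 7.15 (0.58, SE 0.11, adjusted p = 0.025, limma). The groups did not overlap in any of the 3 genes, again by the rule for named genes. Stt3A differed about as much in the first experiment (0.81) as in the second (0.68), and CG4045 likewise (0.75 and 0.87), whereas Dpit47 differed by 0.26 in the first and 0.74 in the second.

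Neither gene that fell has a role given here. CG30357 had 5.75, 5.68 and 5.58 in rotating pupae against 6.22, 6.75 and 6.36 in static pupae, a log2 difference of -0.77 (SE 0.15, adjusted p = 0.039, limma). CG9948 had 5.58, 5.54 and 5.70 against 6.13, 6.37 and 6.21 (-0.63, SE 0.11, adjusted p = 0.0231, limma). For each of them the rotating arrays lay close together and, by the rule for named genes, below every static array.

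**Figure D2:**
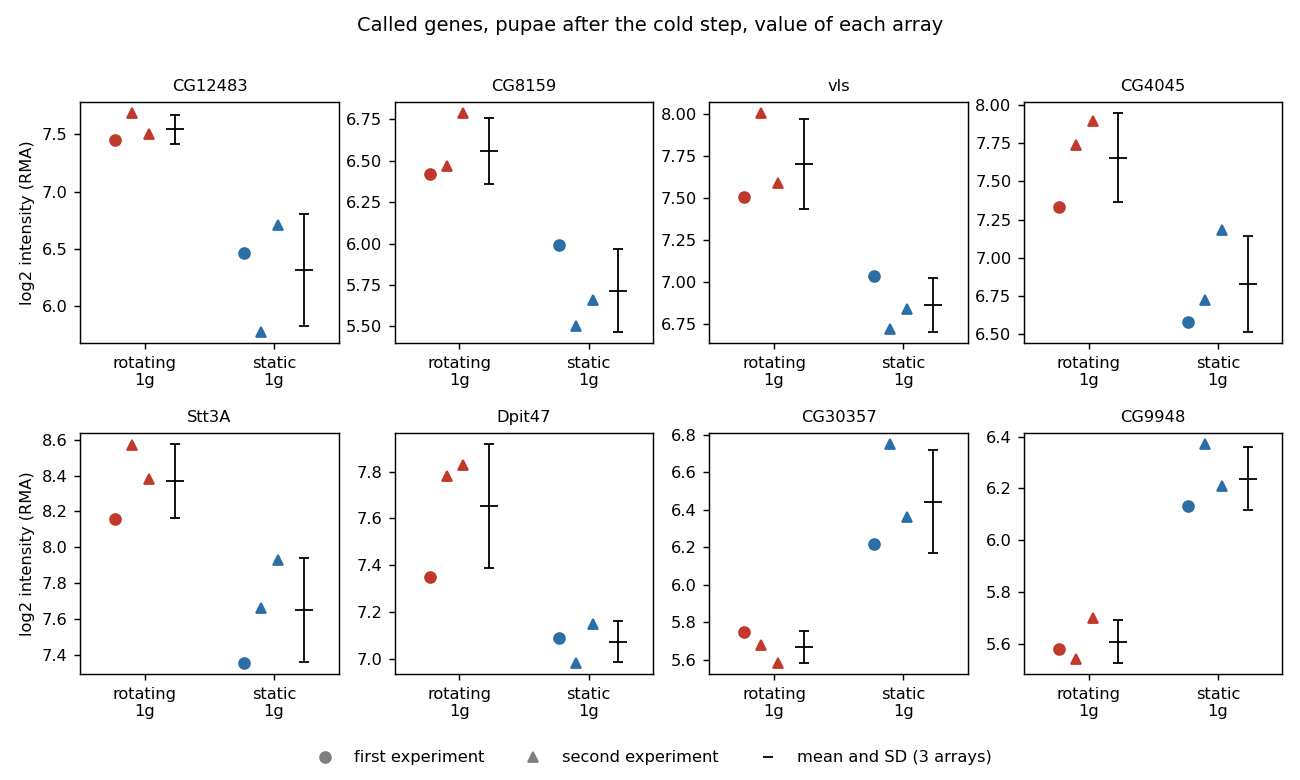
Log2 intensity of the 8 called genes with a symbol on each of the 3 rotating (left, red) and 3 static 1g arrays (right, blue) after the cold step, circles for the first and triangles for the second experiment, with the mean and SD of each group in black and a separate y scale per gene. The groups do not overlap in any panel, as the rule for named genes required, and the differences run between -0.77 and 1.23.

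Of the further genes with the smallest p in each direction, none passed the adjustment. On the higher side these were CG13155 (log2 difference 0.96), Lint-O (0.78), a partner of the tumour suppressor L(3)mbt in a repressor complex, egh (0.95), a mannosyltransferase of glycosphingolipid synthesis, CROT (1.11), a carnitine acyltransferase for medium-chain fatty acids, Ge-1 (0.81), a scaffold of mRNA decapping, and CG8326 (0.79), with adjusted p between 0.0633 and 0.0701. CROT stood at 9.56, 9.48 and 9.32 on rotating arrays and at 9.11, 7.81 and 8.12 on static arrays. CG8326 differed by 0.01 in the first experiment and by 1.18 in the second, the most uneven of the 6. On the lower side were CG10587, the cohesin subunit SA2, CG31464, the salivary glue gene Sgs1, CG34025, ATPsynbetaL, CG13426, CG30161, CG33225 and CG31909, with differences between -0.38 (Sgs1) and -1.39 (CG31909) and adjusted p between 0.0701 and 0.129. Some of them were dim, such as CG10587 (means 4.54 rotating and 5.11 static) and Sgs1 (4.78 and 5.16), where the lower quartiles of the arrays were 4.98 to 5.18. ATPsynbetaL, a paralogue of the beta subunit of ATP synthase, had 6.50, 6.10 and 6.16 in rotating pupae against 6.91, 6.82 and 6.95 in static pupae. CG31909 had 8.45, 8.81 and 7.80 against 9.62, 10.14 and 9.48.

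Within the second experiment alone, with the spread taken from all LDC groups, 1379 probe sets were higher in the 2 rotating arrays (7.35%) and 227 were lower (1.21%). All 10 probe sets called over both experiments were among them. These arrays were also part of the main comparison, so that overlap is no independent support. By gene, with each gene read from its brightest probe set, 1195 of 11982 rose (9.97%) and 150 fell (1.25%). The second experiment holds static replicate 2 and the pair of pools whose yolk gene levels lay farthest apart, 12.24 on rotating replicate 2 and 7.22 on static replicate 2. The first experiment has 1 array in each group and was not tested.

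Genes of the testis lay below zero throughout. All 31 measured testis genes had a negative difference, with a median of -0.79 against 0.07 over all 11982 genes, and the rotating arrays lay below all static arrays in 16 of them, where 8.5% of all genes did so. Over all genes 7168 lay above zero and 4782 below. At an unadjusted p under 0.05, 16 of the 31 were lower, against 7.84% of all genes, and 0 passed the adjustment. The median level of the list was 8.41, 8.80 and 7.65 on the rotating arrays and 8.93, 9.20 and 9.05 on the static arrays. These medians did not overlap, and rotating replicate 3 was the lowest. In such whole-body samples fewer cells of a type and less RNA per cell cannot be told apart.

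The named testis genes shared this order. janB, a sperm protein gene, had 9.86, 9.85 and 8.81 in rotating pupae against 10.33, 10.96 and 10.55 in static pupae (-1.11, SE 0.42, adjusted p = 0.236, limma). dj (don juan), a component of the sperm tail, had 6.65, 6.62 and 5.76 against 7.05, 7.75 and 7.50 (-1.09, SE 0.39, adjusted p = 0.224, limma). Differences for soti, which restrains caspases in maturing spermatids, and for Mst36Fa, a male-specific transcript, were -0.63 and -0.79. Mst36Fa was the only testis gene to fall within the second experiment (-1.10, adjusted p = 0.0421, limma), where the list's median was -1.0, and in the first experiment the median was -0.31. Without rotating replicate 3 the median was -0.46.

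Seminal fluid genes were also lower by value, with a different order of arrays. All 14 Acp genes, which encode accessory gland proteins passed to the female at mating, had negative differences between -0.95 and -0.37, and 21 of 22 other seminal fluid genes did, with medians of -0.65 and -0.44 and 0 calls in either list. The lowest array was here rotating replicate 1. The median of the Acp genes was 7.59, 9.64 and 8.96 on rotating replicates 1 to 3 and 9.04, 9.43 and 9.83 on static replicates 1 to 3, so that the groups overlapped. Acp98AB had 6.87, 10.11 and 8.98 against 8.93, 9.55 and 10.33. EbpII, an ejaculatory bulb protein gene, was at 4.83 on rotating replicate 1 and at 11.42 and 10.72 on rotating replicates 2 and 3, against 9.33, 11.06 and 11.66 in static pupae. Without rotating replicate 1 the median of the Acp genes was -0.20.

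**Figure D3:**
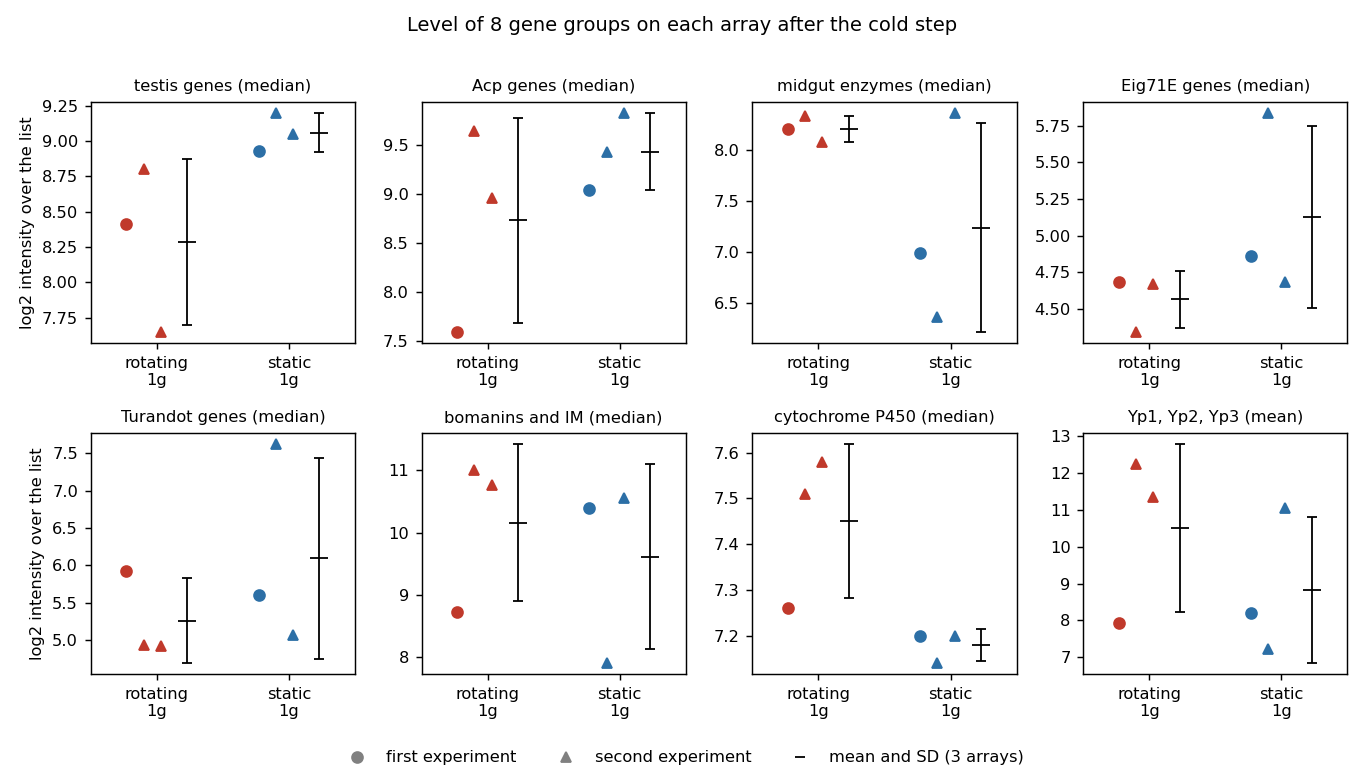
Level of 8 gene groups on each rotating (left, red) and static 1g array (right, blue) after the cold step, as the median log2 intensity over the list or, for the yolk protein genes, the mean, circles for the first and triangles for the second experiment, black for the group mean and SD, with a separate y scale per panel. Testis genes and cytochrome P450 genes separate the groups, the latter narrowly (rotating replicate 1 at 7.26, highest static array at 7.20). Static replicate 2 alone is high for Eig71E genes (5.84) and Turandot genes (7.62).

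Some yolk and ovary genes, and a few germline genes of other lists, split the arrays as the yolk markers did. Yp1 had 6.44, 11.39 and 10.77 on the rotating arrays against 6.69, 5.82 and 9.98 on the static arrays (log2 2.04, SE 0.87, adjusted p = 0.271, limma). osk, the organiser of germ plasm, had 5.23, 9.48 and 8.92 against 5.56, 5.72 and 8.33, and dhd, a thioredoxin of the female germline counted among the antioxidant genes, 6.53, 9.66 and 9.13 against 6.51, 6.76 and 8.10. In all 3 genes rotating replicates 2 and 3 and static replicate 3 were high and the remaining arrays low. CycB, the mitotic cyclin B of the cell cycle list, showed the same split of arrays, with 6.43, 9.01 and 8.74 against 6.49, 6.17 and 7.61. The list of 18 yolk and ovary genes as a whole did not show this split. Its median level was 6.14, 5.68 and 5.70 on the rotating arrays and 5.92, 5.70 and 5.78 on the static arrays, its median difference was 0.04 with 12 genes above and 6 below zero, 0 were called, and 3 rose in the second experiment, where 9.97% of all genes did. There Yp1 rose by 3.18 (adjusted p = 0.0129, limma), osk by 2.17 (0.0491), otu by 0.71 (0.0269), dhd by 1.96 (0.000249) and CycB by 1.98 (0.0039), and in the first experiment the differences were -0.25, -0.33, 0.07, 0.02 and -0.06.

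Midgut enzymes were the list with the highest median. Of 35 genes for digestive proteases, glycosidases and lipases, 33 had positive differences, where 7168 of all 11982 genes did. Their median was 0.84 with 0 calls, and 11 were higher at an unadjusted p under 0.05, against 11.5% of all genes. The groups did not overlap in 3 of them, where 5.34% of all genes were higher without overlap. Jon99Ci, a serine protease of the Jonah family, had 7.16, 7.0 and 6.85 in rotating pupae against 6.28, 5.55 and 6.35 in static pupae (0.94, SE 0.22, adjusted p = 0.105, limma). Its difference was 0.88 in the first experiment and 0.97 in the second. Mal-A3, a maltase, had 7.37, 8.11 and 8.08 against 6.99, 6.33 and 7.29 (0.98, SE 0.25, adjusted p = 0.131, limma). mag, the gut lipase magro, had 5.61, 8.44 and 7.81 against 6.01, 4.70 and 6.42, where rotating replicate 1 lay within the static range. The list's median level was 8.21, 8.34 and 8.08 on the rotating arrays and 6.99, 6.37 and 8.37 on the static arrays, so static replicate 3 lay with the rotating arrays. Without static replicate 2 the median difference was 0.38. In the second experiment 6 midgut genes rose and 1 fell, against 9.97% and 1.25% of all genes.

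Cytochrome P450 genes, oxidases of hormones, lipids and foreign compounds, had a median of 0.19, with 58 of 81 above zero, where 7168 of all 11982 genes lay. At an unadjusted p under 0.05, 17 were higher and 2 lower, against 11.5% and 7.84% of all genes. Cyp6t1 had 6.42, 8.19 and 7.81 in rotating pupae against 6.01, 6.02 and 6.84 in static pupae (1.18, SE 0.31, adjusted p = 0.138, limma), with rotating replicate 1 below static replicate 3. Cyp12c1 had 7.68, 8.10 and 8.19 against 7.42, 6.85 and 7.28 and Cyp4d2 8.69, 8.69 and 8.46 against 8.31, 7.90 and 8.09, both without overlap. In the list 7 genes were higher and 3 lower without overlap, against 5.34% and 8.5% of all genes. In the second experiment 14 P450 genes rose and 1 fell, against 9.97% and 1.25% of all genes. The list's median difference was 0.03 in the first experiment and 0.21 in the second. Of the 34 glutathione S-transferases, which conjugate toxic products, 25 lay above zero (median 0.16) and 6 were higher without overlap, against 5.34% of all genes, among them GstE9 with 11.96, 11.93 and 11.78 against 11.11, 11.56 and 11.57.

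Genes of immunity and stress gave values set largely by single arrays. Drsl6, a drosomycin-like peptide gene, had 5.32, 4.81 and 6.08 on the rotating arrays against 5.09, 11.18 and 6.67 on the static arrays, with static replicate 2 the highest. The antibacterial attacin gene AttD had 4.83, 4.54 and 5.26 against 5.05, 8.89 and 5.37. TotB, a stress-induced secreted peptide of the Turandot family, had 5.20, 4.49 and 4.49 against 4.92, 8.92 and 5.05. In all 3 genes static replicate 2 was far above the other 5 arrays. The medians were -0.98 for the 5 Turandot genes and -0.33 for the 14 antimicrobial peptides, and without static replicate 2 they were -0.10 and -0.23. The peptide gene Mtk, in contrast, separated the groups, with 8.09, 7.77 and 7.21 in rotating pupae against 9.63, 8.29 and 8.78 in static pupae (-1.21, SE 0.77, adjusted p = 0.459, limma). It was the only 1 of the 14 antimicrobial peptides lower without overlap, against 8.5% of all genes. The bomanins and related immune-induced peptides ran the other way in static replicate 2: BomT2 had 8.74, 11.55 and 11.29 on the rotating arrays against 10.45, 7.14 and 10.98 on the static arrays. Their median of 0.51 was -0.15 without static replicate 2, and it was -1.08 in the first experiment and 1.39 in the second.

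Recognition of bacterial cell wall gave smaller values. All 7 peptidoglycan recognition protein genes lay above zero (median 0.27), 2 of them without overlap, against 5.34% of all genes, and the intracellular sensor PGRP-LE had 8.45, 8.64 and 8.61 against 8.22, 7.95 and 8.22 (0.44, SE 0.11, adjusted p = 0.127, limma). Over all genes 7168 of 11982 lay above zero.

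Ecdysone-responsive and cuticle genes showed the same array apart. Eig71Ea, 1 of a cluster of ecdysone-induced genes, had 4.68, 4.61 and 5.93 on the rotating arrays against 5.49, 10.77 and 6.26 on the static arrays, and all 9 Eig71E genes had negative differences. Of 112 cuticle protein genes, 75 lay below zero, where 4782 of all 11982 genes lay. Their median was -0.11, 11 were lower at an unadjusted p under 0.05, a share near the 7.84% of all genes, 0 were higher, and 0 were called. Cpr30B had 6.59, 6.57 and 6.03 in rotating pupae against 9.03, 11.84 and 7.42 in static pupae, the most negative difference of all genes at -3.03 (SE 1.08, adjusted p = 0.223, limma). Its groups did not overlap, and both experiments gave negative values, -2.44 and -3.33. Cpr49Aa likewise did not overlap, with 7.12, 6.91 and 6.71 against 7.75, 9.68 and 7.13. Of the 112 cuticle genes only 3 were lower and 3 higher without overlap, against 8.5% and 5.34% of all genes. The hormone lists held to the middle, with medians of 0.05 for 18 ecdysone regulators, 0.06 for 10 genes of ecdysone synthesis, 0.11 for 19 juvenile hormone genes and 0.13 for 9 eclosion hormone genes, and 0 calls in any of them.

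**Figure D4:**
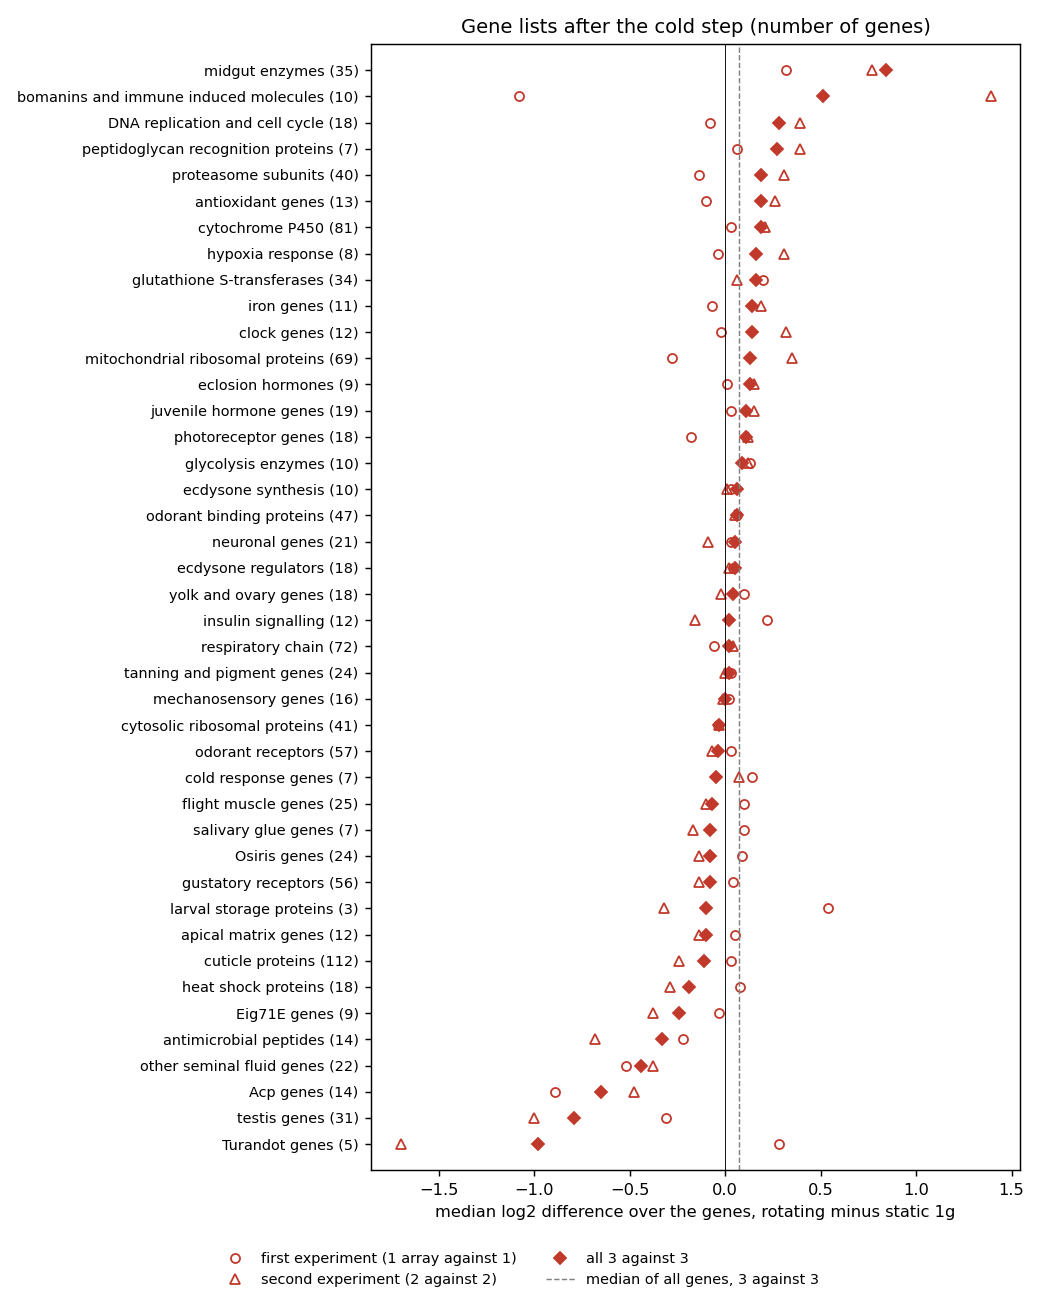
Median log2 difference (rotating minus static 1g, x axis) over the genes of each of 42 lists, with the number of genes in brackets, filled diamonds for 3 against 3 arrays, open circles for the first experiment (1 array against 1) and open triangles for the second (2 against 2). The dashed line is the median of all genes (0.07), the midgut enzymes (0.84) are at the top, and the Turandot (-0.98) and testis genes (-0.79) are at the bottom.

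The proteasome list held opposing members. Among 40 proteasome genes 6 were higher and 10 lower at an unadjusted p under 0.05, against 11.5% and 7.84% of all genes. The higher ones included Rpn13, the ubiquitin receptor, with 10.74, 11.33 and 11.29 in rotating pupae against 10.59, 10.41 and 10.81 in static pupae, and Rpn8, with 10.23, 10.73 and 10.78 against 10.52, 9.66 and 10.21. The lower ones were paralogues with a T or R at the end of the symbol, such as Prosbeta4R1 (6.50, 6.35 and 5.68 against 7.39, 7.44 and 6.76) and Prosalpha4T1 (5.47, 5.12 and 4.91 against 5.80, 6.06 and 5.55). Paralogues of this kind are known for their expression in the male germline. Grouped by that symbol ending, a split made after the values were seen, all 14 paralogues lay below zero (median -0.63, 9 without overlap, against 8.5% of all genes) and all 26 other members above it (median 0.24, 0 without overlap).

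In the respiratory chain such paralogues were low by value, with no opposing side. Over 72 genes the median was 0.02, and 12 were lower and 0 higher at an unadjusted p under 0.05, against 7.84% and 11.5% of all genes. COX4L, a paralogue of a cytochrome c oxidase subunit, had 9.23, 9.25 and 8.30 in rotating pupae against 9.82, 10.42 and 10.03 in static pupae (-1.16, SE 0.41, adjusted p = 0.223, limma). ATPsynCF6L and ND-20L, paralogues of an ATP synthase and a complex I subunit, differed by -1.08 and -0.65, all 3 without overlap. Of the 72 genes 13 were lower without overlap, against 8.5% of all genes. The 18 paralogues marked by a final L, again grouped after the values were seen, had a median of -0.67, and the 54 other members a median of 0.05, with 41 above and 13 below zero. In the list of cytosolic ribosomal proteins, RpL10Aa, with 8.71, 8.83 and 7.70 against 9.22, 9.97 and 9.36, and RpS28-like (-0.82) were low in rotating pupae by value. RpLP0-like, listed by its symbol and with the smallest p in the list, had 7.34, 8.93 and 8.96 against 7.30, 7.35 and 8.24 (0.78, SE 0.27, adjusted p = 0.221, limma). The list's median was -0.03, with 2 of 41 genes higher and 5 lower at an unadjusted p under 0.05, against 11.5% and 7.84% of all genes. Of the 69 mitochondrial ribosomal proteins 58 lay above zero, with a median of 0.13 that was -0.28 in the first experiment and 0.35 in the second. Over all genes 7168 of 11982 lay above zero.

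Heat shock and cold response genes had 0 calls. Of the 18 heat shock genes 14 lay below and 4 above zero, with a median of -0.19, and of the 7 cold response genes 4 lay below and 3 above, with a median of -0.05. Over all 11982 genes 4782 lay below and 7168 above. Hsp60B, Hsp60C, Hsp60D and Hsc70-2 were lower by value without overlap, as 8.5% of all genes were, and 1 heat shock gene was higher without overlap, as 5.34% of all genes were. Hsp60B, a mitochondrial chaperonin needed for sperm individualisation, had 9.45, 9.42 and 8.14 in rotating pupae against 9.79, 9.83 and 9.56 in static pupae. Hsp26, a small heat shock protein, ranged widely in both groups, with 13.71, 9.25 and 12.14 against 13.24, 13.36 and 10.69, and Hsp68 had 11.88, 8.03 and 9.78 against 11.51, 10.70 and 8.81. Fst (Frost), known for its induction during recovery from cold, had 9.45, 7.84 and 7.39 against 9.12, 7.91 and 8.60. The groups overlapped for all 3.

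Sense organs, muscle and the nervous system were likewise close to the median of all genes. The 16 mechanosensory genes, which include the channel genes nompC and ppk, had a median of 0.00 with 8 above and 8 below zero. nompC, the transduction channel of touch and hearing, had 5.14, 5.14 and 5.18 in rotating pupae against 5.14, 4.86 and 4.82 in static pupae (0.21, SE 0.12, adjusted p = 0.413, limma). hmw and tilB, genes for axonemes of sensory cilia and sperm, were the 2 of 16 lower without overlap by value (-0.66 and -0.43), where 8.5% of all genes were. Medians were -0.07 for 25 flight muscle genes, 0.05 for 21 neuronal genes, 0.11 for 18 photoreceptor genes, -0.04 for 57 odorant receptors and -0.08 for 56 gustatory receptors, with 0 calls in these lists. The odorant and gustatory receptor lists were dim, with median levels between 4.36 and 4.61. The lower quartiles of the arrays were 4.98 to 5.18, so a difference near zero says little about these receptors. The odorant binding protein gene Obp19b had 7.85, 8.28 and 8.24 against 7.44, 6.29 and 7.61 (1.01, SE 0.31, adjusted p = 0.17, limma), without overlap. In its list 5 of 47 genes were higher without overlap, against 5.34% of all genes.

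In the circadian clock 11 of 12 genes lay above zero (median 0.14), where 7168 of all 11982 genes did. tim, a core clock repressor whose level cycles daily, had 8.31, 9.59 and 9.38 in rotating pupae against 8.75, 7.39 and 8.49 in static pupae, and the pair of the first experiment ran the other way from the second (-0.44 and 1.54). Pdf, the neuropeptide of the clock neurons, did not overlap, with 6.34, 6.38 and 6.83 against 6.29, 5.98 and 6.08. It was 1 of 2 clock genes higher without overlap, against 5.34% of all genes. The insulin-like peptide gene Ilp5 had 5.78, 6.08 and 5.96 against 5.40, 5.40 and 5.55 (0.49, SE 0.14, adjusted p = 0.151, limma), also without overlap. It was the only 1 of 12 insulin signalling genes higher without overlap, against 5.34% of all genes, in a list with a median of 0.02. Hypoxia response genes (8, median 0.16), glycolysis enzymes (10, median 0.09) and iron genes (11, median 0.14) had 0 calls.

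The same rotation was also given to pupae kept at constant temperature, with 3 rotating and 3 static arrays of their own. There 0 probe sets rose and 3 fell (0.016%), and 519 were higher (2.77%) and 674 lower (3.59%) at an unadjusted p under 0.05. Same-numbered arrays deviated together there, and with the replicate number as a block 2 rose and 6 fell. Rotating replicate 3, however, correlated more with static replicate 2 (0.36) than with static replicate 3 (0.21), so the pairing behind that block is uncertain. Without the block, the count of calls was 0 without rotating replicate 1, 1 without rotating replicate 2 or 3, 18 without static replicate 1, 0 without static replicate 2 and 0 within the second experiment. The genes called after the cold step had differences of 0.59 (SE 0.21) for CG12483, -0.07 (0.14) for CG8159, -0.04 (0.13) for vls, 0.27 (0.16) for CG4045, 0.10 (0.14) for Stt3A and 0.03 (0.11) for Dpit47 at constant temperature, and of 0.27 (0.15) for CG30357 and -0.09 (0.11) for CG9948. CG12483, CG4045 and 1 of the called probe sets without a single symbol were those of the 10 whose rotating arrays all lay above the static ones in both regimes. At constant temperature CG12483 had 5.76, 5.35 and 5.58 against 5.32, 4.83 and 4.78, CG4045 had 7.02, 6.98 and 6.88 against 6.39, 6.83 and 6.84, and that probe set lay between 10.61 and 10.95 against 10.47 to 10.55 (log2 difference 0.31). The margin was narrow for CG12483 (5.35 against 5.32) and CG4045 (6.88 against 6.84). The share of all probe sets without overlap at constant temperature was not counted, so no background stands beside these cases. vls had 7.53, 7.29 and 7.22 against 7.25, 7.26 and 7.66 there, which overlapped.

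Tested as an interaction, the effect of rotation after the cold step minus that at constant temperature gave 0 calls of 18769 probe sets with limma, with or without the replicate block. At an unadjusted p under 0.05, 2473 differences were counted (13.2%), 972 positive (5.18%) and 1501 negative (8.0%), and 46 had an unadjusted p under 0.001. The difference was 0.91 for CG8159 (SE 0.19), 0.88 for vls (SE 0.18) and -1.05 for CG30357 (SE 0.21), each with an adjusted p of 0.232. Without the cold-step rotating replicate 1 there were 303 calls, without static replicate 1 there were 7 and without static replicate 3 there was 1. Testis genes had a median of -0.79 and Acp genes of -0.65 after the cold step, against 0.53 and 0.54 at constant temperature, and midgut enzymes had 0.84 after the cold step against -0.16. Of these genes 0 were called in either regime, and the difference between the medians was not tested. Single arrays weighed on some of the values at constant temperature. Acp36DE had 7.76, 4.26 and 4.36 in rotating pupae there against 4.78, 4.42 and 4.35 in static pupae. The testis gene janB had 10.75, 10.58 and 10.35 there against 10.24, 10.42 and 8.99.

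**Figure D5:**
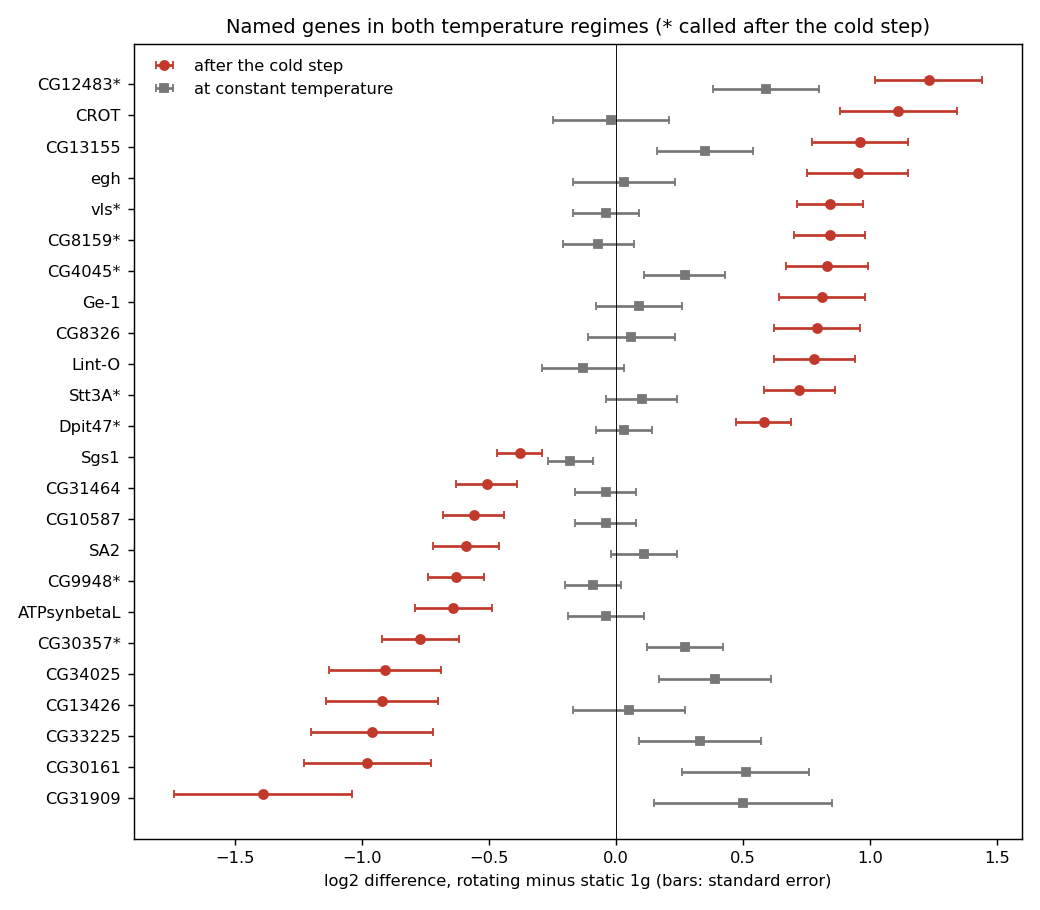
Log2 difference (rotating minus static 1g, x axis) of the 24 named genes after the cold step (red circles) and at constant temperature (grey squares), with standard errors as bars and an asterisk for genes called after the cold step. CG12483 is at 1.23 and 0.59, while vls (0.84 and -0.04) and CG8159 (0.84 and -0.07) lie near zero at constant temperature.

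Pupae at 12g after the cold step were compared with the rotating pupae, which share the motion but not the load. Here 3027 probe sets were higher (16.1%) and 3205 lower (17.1%) at 12g, 33.2% in all (44.4% at an unadjusted p under 0.05), but all 3 arrays at 12g came from the first experiment and 2 of the 3 rotating arrays from the second. Both arrays at 6g came from the second, so a difference between 6g and 12g cannot be told apart from one between the experiments. With a term for the experiment 1650 were higher and 2176 lower. This comparison uses the same rotating arrays as the one above, so a high value on them enters both. The 6 genes that rose with rotation were lower at 12g than in rotating pupae, with differences between -0.69 and -1.25, and called in each case. CG12483 had 7.71 and 7.50 at 6g and 6.68, 6.88 and 6.67 at 12g, and vls had 7.27 and 7.01 at 6g and 7.02, 7.07 and 6.94 at 12g. CG9948 had 6.64, 6.58 and 6.66 at 12g, above every rotating and static array. Midgut enzymes had a median difference of -1.28 between 12g and rotating pupae, with 21 of 35 lower and 1 higher, and Acp genes a median of -3.08, with 11 of 14 lower. Over all genes 2704 of 11982 were lower and 1314 higher at 12g. Some Acp genes were dim at 12g, such as Acp26Aa with 4.80, 4.74 and 4.58. Other genes tied to stage or sex also differed between 12g and rotating pupae. The differences were 5.46 for the cuticle gene Cpr30B, 1.65 for the cuticle gene Acp65Aa and -4.0 for Yp1, but -0.06 for Act88F. The part of age and sex ratio in this comparison was not tested. Between 6g and rotating pupae the medians were -0.73 for midgut enzymes and 1.54 for Acp genes, the latter of opposite sign to 12g.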

How the data were processed

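The deposited table holds log2 expression values that the authors made with RMA (background correction, quantile normalization and summary of probes) from 90 Affymetrix Drosophila Genome 2.0 arrays. RMA and limma are named in the submitters' processing notes, with versions not given in the sources used here. The table has 18952 rows; dropping 183 control rows gave 18769 probe sets for testing, with no other filter. Groups came from the labels and the experiment of each array from the study's methods. The number of arrays limits the precision. Gene symbols came from the platform annotation, updated through the RefSeq gene table: 13647 probe sets have 1 symbol, 402 several and 4720 none.

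The main test was limma 3.58.1 in R 4.3.3 on the deposited log2 values, with 16 group means over the 40 LDC arrays, so that all groups share 1 estimate of the spread, and Benjamini-Hochberg adjustment over all probe sets. A probe set was called at an adjusted p under 0.05. P-values measure the spread between pools. Groups share replicate numbers in the labels. Deviations of same-numbered rotating and static arrays correlated at 0.58, 0.57 and 0.21 at constant temperature, so the numbers were taken as pairs there. This pairing is uncertain, since rotating replicate 3 and static replicate 2 correlated at 0.36 there. After the cold step not every same-numbered correlation was positive, and rotating replicate 2 and static replicate 3 correlated at 0.59. The main fit has no block. Lists were read with each gene at its brightest probe set, as counts and medians with no test. Named genes were probe sets of 1 symbol: those called whose groups did not overlap, filled to 12 per direction by the smallest p among genes without overlap, and up to 4 members of each list with the smallest p. In data simulated for the comparison after the cold step, over 18769 probe sets, 23.9% of those shifted by 0.5, 74.6% of those shifted by 1 and 95.5% of those shifted by 2 on the log2 scale were called. The simulated noise was drawn independently for each probe set and array. It lacks the deviations that the real arrays share and their single outlying arrays, so these shares need not hold for the real comparison. The samples, lists and named-gene rule were chosen with earlier results of these data known.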

Additional observations from a re-analysis of the deposited data

How the results depend on the processing

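The number of calls depended on the processing, for causes that were not tested. The 10 called probe sets kept their sign in every alternative that measured them. Their groups did not overlap, so leaving out arrays could not change that sign. Against 10 calls after the cold step there were 86 with a term for the experiment in all LDC arrays, 1606 within the second experiment, 128 at an unadjusted p under 0.001, 4 with a trended and robust spread, 5 without dim probe sets (which left 6 of the 10 in the test), 1 with quantile normalization (higher, against 8 higher and 2 lower), 0 with only the 2 groups in the fit and 0 with the experiment term in those groups. Leaving out 1 array gave 0 to 1999 calls. Same-numbered arrays had correlated deviations of 0.45, -0.23 and 0.46 after the cold step, so the numbers were not taken as pairs there. A replicate block gave 0 calls in a fit of the 2 groups, as that fit did without it, and 54 in the fit of all LDC arrays, chosen after seeing the data, with all 10 among them. For the difference between the temperature regimes, 0 calls became 46 at an unadjusted p under 0.001, 422 within the second experiment, an alternative chosen after seeing the data, and 0 to 303 without 1 array. For 12g against rotation, 6232 calls became 2673 at an unadjusted p under 0.001, 3826 with the experiment term, 3152 without dim probe sets, 3001 with a replicate block over 9 arrays (chosen after seeing the data) and 3171 to 8620 without 1 array. Median centring turned the split of 3027 higher and 3205 lower into 4387 and 2594. At constant temperature, where the alternatives were chosen after seeing the data, 3 calls became 21 at an unadjusted p under 0.001, 6 with the experiment term, 8 with the replicate block, 0 with only the 2 groups in the fit, with or without the block, 0 within the second experiment and 0 to 18 without 1 array. Named genes gave 404 alternative values, of which 261 stayed on their side of the threshold, 77 lost a call, 66 gained one and 0 changed sign. Their groups did not overlap either, so alternatives that only leave out arrays could not change the sign. In the simulation most shifts of 0.5 were missed, so differences of that size may often go undetected with these arrays. Its noise was independent between arrays, unlike that of the real ones.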

Other observations

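The aminoacyl-tRNA synthetases, the enzymes that load amino acids onto tRNAs, were looked at after their values were seen. All 18 measured genes of the cytosolic set lay above zero in rotating pupae, with a median of 0.36 against 0.07 over all genes, and 7 did not overlap between the groups, against 5.34% of all genes. The 14 mitochondrial genes had a median of 0.10, with 10 above zero. Over all genes 7168 of 11982 lay above zero. GlyRS had 7.99, 8.56 and 8.47 on rotating arrays against 7.55, 7.66 and 7.90 on static arrays (0.64, SE 0.17, adjusted p = 0.145, limma). alpha-PheRS had 7.46, 7.90 and 7.86 against 7.07, 6.91 and 7.36 (0.63, SE 0.14, adjusted p = 0.0885, limma), and SerRS 9.56, 10.01 and 9.85 against 9.48, 9.16 and 9.36. Over both experiments 0 were called, and within the second experiment 9 of the 18 cytosolic genes rose, where 9.97% of all genes did. In the first experiment the median of the cytosolic set was 0.02.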
